A study of Homo sapiens with 6 samples.

Results

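The transcripts of the mitochondrial genome were taken as every gene of the deposited tables whose symbol begins with MT-, which gave 37 of the 58395 genes counted. They comprise 2 ribosomal RNAs (rRNAs), 13 messenger RNAs (mRNAs) and 22 transfer RNAs (tRNAs), all on chromosome M of GRCh38. They were followed in 6 lines of HEK293, an established human embryonic kidney cell line, with 1 RNA-seq library per line. GST lines 2, 8 and 9 overexpressed GST-3F, a glutathione S-transferase carrying a tag (3F in the labels), and were the controls. NOCT lines 4, 11 and 12 overexpressed NOCT ∆(2-15)-3F, nocturnin without residues 2 to 15 and with the same tag. Every line was a clone grown for 3 days, so a difference between groups rests on 3 clones against 3. The p-values below set that difference against the spread between clones. With 1 library per clone, that spread includes differences between cultures and between libraries. Nocturnin belongs to the CCR4-like enzymes and is known to act on NADP and NADPH, and the amino-terminal end of its full-length form is known to carry a mitochondrial targeting sequence. Where the expressed form resides in these lines was not measured. The comparison asks how the RNA of the mitochondrial genome differs between lines with this form of nocturnin and lines with the control protein.

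The mitochondrial genome is a small circular DNA, present in many copies per cell, that encodes core subunits of the respiratory chain and of ATP synthase together with the rRNAs and tRNAs that translate them. Both strands are transcribed as long precursors, and enzymes that cut at the ends of the tRNAs release most of the mRNAs and rRNAs between them. Most of the mRNAs then receive short poly(A) tails, and the mature RNAs have separate lifetimes, so genes of 1 precursor can differ in level. Genes on the plus strand of chromosome M are called heavy-strand transcripts here, and those on the minus strand light-strand transcripts, after the promoters that drive them. There were 28 of the former and 9 of the latter. The light-strand set is MT-ND6 and 8 tRNAs.

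The annotated ends of the mRNA genes show how tightly the genome is packed. Where each mature mRNA ended in these lines was not measured. The last 24 bases of 4 annotated mRNAs are printed from GENCODE release 29 (GRCh38, 5′ to 3′), with the bases of the last codon in capitals. As annotated, MT-CO1 and MT-ATP6 end in a whole stop codon, whereas MT-ND1 and MT-CO3 stop before it is complete. The poly(A) tail is known to supply the missing A bases. The last A printed for MT-ATP6 (chrM:9207) is also the first base of MT-CO3, so its stop codon is whole only if that shared base is counted.
MT-CO1 (chrM:7422-7445, plus strand): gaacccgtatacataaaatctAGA
MT-ATP6 (chrM:9184-9207, plus strand): ctctacctgcacgacaacacaTAA
MT-ND1 (chrM:4239-4262, plus strand): ctccagcattccccctcaaaccTA
MT-CO3 (chrM:9967-9990, plus strand): tctccatctattgatgagggtctT
Of the 13 annotated mRNAs, 6 ended in an incomplete codon (MT-ND1, MT-ND2, MT-CO3, MT-ND3, MT-ND4 and MT-CYB) and 7, with MT-ATP6 among them, in a complete one.

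The libraries had 19729745 to 24422406 gene counts and were strand-specific and depleted of ribosomal RNA. The GST construct had 46 to 88 counts in the GST lines and 0 or 1 in the NOCT lines, and the NOCT construct had 46 to 82 counts in the NOCT lines and 3 to 7 in the GST lines, so each library held mainly the construct of its label. Over all 17261 genes tested, edgeR's quasi-likelihood test called 10 at a Benjamini-Hochberg adjusted p under 0.05, which is 0.0579%, and 2399 (13.9%) had an unadjusted p under 0.05. With spike-in RNA totals as the scale, the median log2 fold change over these genes moved from 0.00 to 0.15.

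Of the 37 mitochondrial genes, 22 passed the filter on low counts (both rRNAs, all 13 mRNAs and 7 tRNAs), and 0 of these 22 were called by edgeR, against 0.0579% of all genes. At an unadjusted p under 0.05, 1 of the 22 was higher in the NOCT lines (MT-TF, against 7.38% of all genes) and 0 were lower (against 6.52%). DESeq2 also called 0, against 2.94% of all genes in its fit, with no adjusted p for MT-TF, MT-TQ, MT-TA and MT-TS1. It gave 0 of the 22 an unadjusted p under 0.05, against 13.5% of all genes. The groups did not overlap for 1 gene that was higher in all NOCT lines (MT-TF, against 10.5% of all genes) and for 2 that were lower (MT-CO1 and MT-RNR1, against 9.54%). None of these shares of the 22 exceeded that of all genes. The unadjusted count rested on which lines were used: without NOCT line 12, 9 of 23 mitochondrial genes had an unadjusted p under 0.05 in edgeR (1 higher, 8 lower), in a fit where 23.2% of all genes did. With no filter on low counts it was 7 of 29 (1 higher, 6 lower), against 10.7% of all genes. Levels, make-up and the spread between clones are described below for each class.

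Mitochondrial transcripts took 30.0%, 27.4% and 28.5% of the gene counts in GST lines 2, 8 and 9, and 25.1%, 27.1% and 28.2% in NOCT lines 4, 11 and 12. The GST lines averaged 28.6% ± 1.32 and the NOCT lines 26.8% ± 1.54 (SD over 3 lines). The highest share was in a GST line and the lowest in a NOCT line, and the groups overlapped. Each share came from at least 5668440 counts, so its counting interval was narrow: 30.0% in GST line 2 had a 95% Wilson interval of 29.98% to 30.02%. Such intervals cover counting error only. In bulk RNA, fewer cells or mitochondrial genomes and less RNA per cell or genome cannot be told apart, and the number of genomes was not measured. Most of the share was rRNA in libraries made after rRNA depletion, and how evenly the depletion acted across the lines was not tested.

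The rRNAs made up nearly all of this share. They took 28.0%, 25.5% and 26.5% of gene counts in GST lines 2, 8 and 9, and 23.5%, 25.3% and 26.2% in NOCT lines 4, 11 and 12. The 13 mRNAs together took 2.04%, 1.87% and 1.95% in the GST lines and 1.59%, 1.803% and 1.93% in the NOCT lines. The 22 tRNA genes together reached only 15.9, 16.7 and 15.4 counts per 1000000 gene counts in the GST lines and 10.6, 12.2 and 16.7 in the NOCT lines. NOCT line 4 was lowest in all 3 classes, and the groups overlapped in each. The 9 light-strand genes went the other way in that line, with 37.0, 45.9 and 36.9 counts per 1000000 gene counts in the GST lines and 49.0, 39.1 and 41.9 in the NOCT lines. Relative to spike-in counts, the mean of the rRNAs differed by a log2 ratio of 0.01 between the groups, against -0.09 per gene count.

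**Figure D1:**
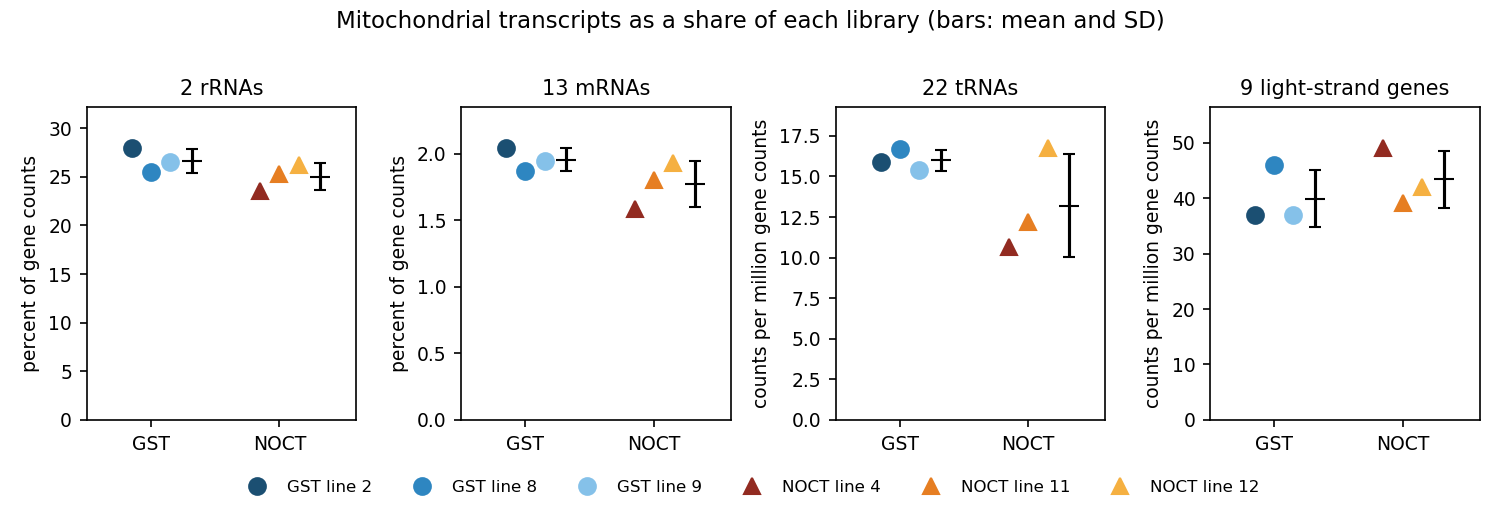
Share of each library taken by the rRNAs and the mRNAs (percent of gene counts) and by the tRNAs and the light-strand genes (counts per 1000000 gene counts); circles are GST lines, triangles NOCT lines, and bars the mean and SD of 3 lines. In every panel the lines of the groups overlap. NOCT line 4 is lowest for rRNAs, mRNAs and tRNAs but highest for the light-strand genes, at 49.0 counts per 1000000 gene counts. MT-ND6 holds 1068 of the 1197 light-strand counts in that line.

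MT-RNR1 and MT-RNR2 are the RNAs of the small and the large subunit of the mitochondrial ribosome, and they lie next to each other near the start of the heavy-strand transcript (chrM:648-1601 and chrM:1671-3229), with the tRNA gene MT-TV between them. MT-RNR1 had 14021, 10542 and 10051 CPM (counts per 1000000 gene counts, scaled by TMM) in GST lines 2, 8 and 9, and 9422, 9935 and 9774 in NOCT lines 4, 11 and 12. All NOCT lines were below all GST lines, but GST line 2 stood well above the other five. The log2 fold change of NOCT over GST was -0.25 with a standard error (SE) of 0.13 (95% interval -0.56 to 0.06, edgeR adjusted p 0.453), and without GST line 2 it was -0.09. MT-RNR2 had 277285, 243209 and 260049 CPM in the GST lines and 216675, 239918 and 255351 in the NOCT lines. These overlapped, and the log2 fold change was -0.13 ± 0.11 (SE; 95% interval -0.38 to 0.11, edgeR adjusted p 0.613); scaled by spike-in totals it was 0.01.

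Per length, MT-RNR2 was far above MT-RNR1. The deposited TPM values (abundance scaled for gene length and depth) gave a ratio of MT-RNR2 to MT-RNR1 of 12.1, 14.1 and 15.8 in GST lines 2, 8 and 9, and of 14.1, 14.8 and 16.0 in NOCT lines 4, 11 and 12. The ratio was lowest in GST line 2, the line with the most MT-RNR1, and the groups overlapped. Both are ribosomal RNAs in libraries made after rRNA depletion, and how far the depletion removed each of them was not tested. Their levels are those of the libraries, not of the cells.

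The mRNA levels per length spanned a wide range although 12 of the 13 come from the same strand. MT-CO3, a core subunit of complex IV (cytochrome c oxidase), was highest with a mean of 17604 TPM over the 6 lines (15479 to 18527). MT-CO1 followed at 11037 TPM and MT-CO2 at 9603 TPM, and the ranges of these 2 overlapped. Next came MT-ND1 (3546 TPM), MT-ATP6 (3173 TPM), MT-CYB (3015 TPM) and MT-ND4 (2475 TPM), each of which overlapped with its neighbour in this order. MT-ND3 (1536 TPM), MT-ND5 (1124 TPM), MT-ND2 (815 TPM) and MT-ND4L (603 TPM) were separate steps below them, with ranges that did not overlap. MT-ATP8 (239.7 TPM, 218 to 267) and MT-ND6 (197 TPM, 168 to 247) were lowest, and their ranges overlapped on the TPM scale. The 3 complex IV mRNAs therefore stood above all 7 complex I mRNAs in every line.

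**Figure D2:**
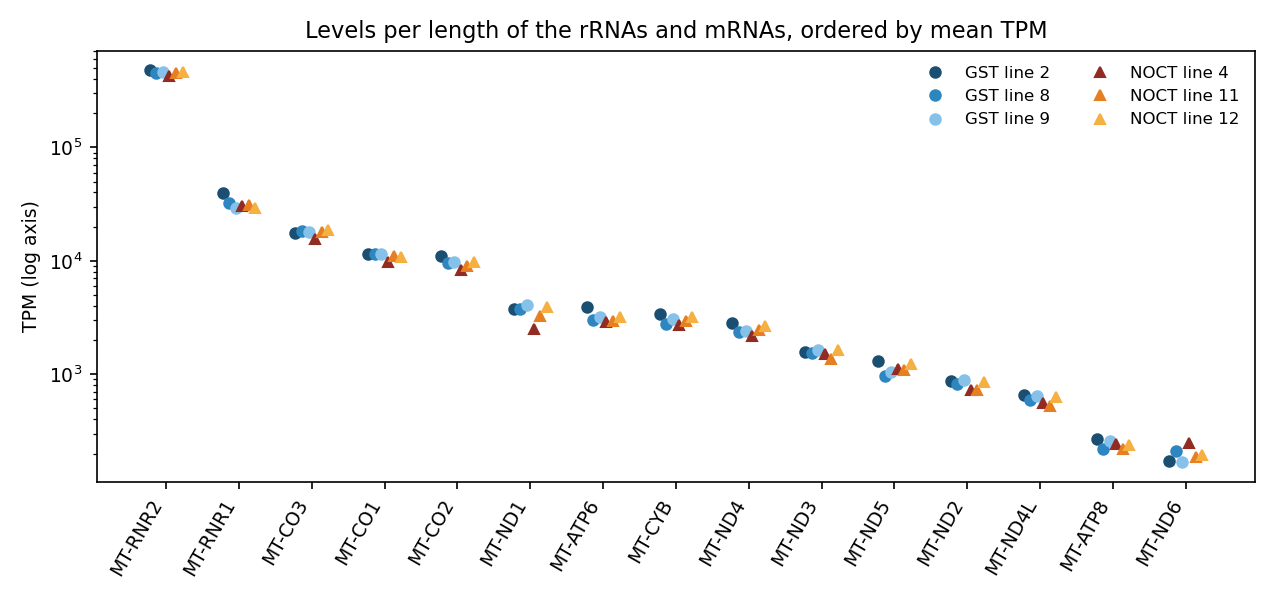
Deposited TPM (log axis) of the 2 rRNAs and 13 mRNAs in each line, ordered by the mean over the 6 lines; circles are GST lines and triangles NOCT lines. Levels fall from 457230 TPM for MT-RNR2 to 197 TPM for MT-ND6, and the points of the 6 lines lie close together beside the distances between most genes.

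Complex IV of the respiratory chain passes electrons to oxygen, and its 3 mitochondrial subunits had lower means in the NOCT lines on the TMM scale, without a call. Scaled by spike-in totals, the log2 fold changes were -0.05 for MT-CO1, -0.12 for MT-CO2 and 0.02 for MT-CO3, and without NOCT line 4 they were -0.12, -0.19 and -0.03. MT-CO1, which holds the heme and copper of the active site, had 6596, 6101 and 6329.7 CPM in GST lines 2, 8 and 9, and 4905, 5786 and 5932 in NOCT lines 4, 11 and 12. No NOCT line reached the lowest GST line, and the log2 fold change was -0.19 ± 0.10 (SE; 95% interval -0.43 to 0.04). MT-CO2, which receives electrons from cytochrome c, had 2831, 2264 and 2428 CPM in the GST lines and 1842, 2077 and 2346 in the NOCT lines. NOCT line 12 lay within the GST range, and the log2 fold change was -0.26 ± 0.12 (SE; 95% interval -0.55 to 0.02). MT-CO3 had 5083, 4926 and 5096 CPM in the GST lines and 3923, 4735 and 5136 in the NOCT lines. Its highest value was in NOCT line 12 and its lowest in NOCT line 4, and the log2 fold change was -0.13 ± 0.11 (SE). The edgeR adjusted p of the complex IV mRNAs lay between 0.396 (MT-CO2) and 0.638 (MT-CO3).

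Complex I takes electrons from NADH and holds 7 subunits of the mitochondrial genome, 6 from the heavy strand and MT-ND6 from the light strand. MT-ND1, which lies next to the quinone site, had 1334, 1228 and 1399 CPM in GST lines 2, 8 and 9, and 775, 1061 and 1329 in NOCT lines 4, 11 and 12. Its highest line was 1.805 times its lowest, the widest spread of any mRNA, and only NOCT line 12 reached the GST range. The log2 fold change was -0.32 ± 0.18 (SE; 95% interval -0.74 to 0.09), and it was -0.15 without NOCT line 4 and -0.53 without NOCT line 12 (edgeR adjusted p 0.0643). MT-ND2 and MT-ND4, which belong to the proton-pumping membrane arm, gave -0.25 ± 0.12 and -0.14 ± 0.14 (SE). MT-ND2 had 295 to 337 CPM in GST lines and 246 to 316 in NOCT lines. MT-ND4 had 1109.8 to 1457 CPM in GST lines and 961 to 1287 in NOCT lines. MT-ND3 (-0.16 ± 0.11, SE) and MT-ND4L (-0.23 ± 0.12, SE), the short membrane subunits, were likewise lowest in a NOCT line, NOCT line 11. MT-ND3 had 182 to 203 CPM in GST lines and 159 to 199.6 in NOCT lines. MT-ND4L had 61.1 to 73.2 CPM in GST lines and 52.6 to 66.4 in NOCT lines. MT-ND5 had 886, 606 and 677 CPM in the GST lines and 646, 671 and 781 in the NOCT lines. It was the heavy-strand mRNA nearest to 0, at -0.05 ± 0.15 (SE), and became 0.10 with spike-in totals and 0.12 without GST line 2. The edgeR adjusted p of the complex I mRNAs was 0.406 to 0.912.

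MT-CYB is the cytochrome b of complex III and the only subunit of that complex made in mitochondria. It had 1434, 1085 and 1265 CPM in GST lines 2, 8 and 9, and 1009.5, 1125 and 1297 in NOCT lines 4, 11 and 12. The groups overlapped broadly (log2 fold change -0.14 ± 0.13, SE, edgeR adjusted p 0.675; 0.0042 with spike-in totals). MT-ATP6 and MT-ATP8 are membrane subunits of ATP synthase, complex V. MT-ATP6 had 985, 703 and 778 CPM in the GST lines and 637, 672 and 763 in the NOCT lines, with GST line 2 apart from the other five. Its log2 fold change was -0.25 ± 0.14 (SE, edgeR adjusted p 0.460), and without GST line 2 it was -0.10. MT-ATP8 had 15.6 to 20.6 CPM in the GST lines and 15.2 to 17.3 in the NOCT lines, a log2 fold change of -0.18 ± 0.15 (SE).

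MT-ATP8 and MT-ATP6 are read from 1 mRNA with 2 reading frames, as are MT-ND4L and MT-ND4, and the overlap bears on their counts. MT-ATP8 shares its last 46 bases with MT-ATP6, and they run from the start codon of MT-ATP6 to the stop codon of MT-ATP8, both in capitals. MT-ND4L shares its last 7 bases with MT-ND4, in capitals in its last 24 bases.
MT-ATP8 and MT-ATP6 (chrM:8527-8572, plus strand): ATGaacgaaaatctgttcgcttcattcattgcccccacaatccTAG
MT-ND4L (chrM:10743-10766, plus strand): aacctaaacctactccaATGCTAA
A read of 50 bases that touches both genes of a pair has no single gene, and whether such reads were counted depends on the HTSeq mode, which is not given. MT-ATP8 is 207 bases long and leaves 113 start positions where a read touches it and no other gene, against 585 for MT-ATP6. By TPM, MT-ATP8 was at 7.55% of MT-ATP6, and by counts per such start position at 11.9%. MT-ND4L was at 24.4% of MT-ND4 by TPM and at 28.8% per start position (241 against 1322). The partners of 1 mRNA thus differed on both scales, more for MT-ATP8 than for MT-ND4L. Over all lines MT-ATP8 had 19.5 counts per start position and MT-ND6 8.82, so they stood further apart on that scale than by TPM. In the NOCT and GST lines the TPM ratio of MT-ATP8 to MT-ATP6 was 7.45% to 8.39% and 6.88% to 8.07%, so the groups overlapped.

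MT-ND6 is the only mRNA of the light strand and the only one with a log2 fold change above 0 on the TMM scale, whereas spike-in totals put 5 of the 13 above 0. It had 33.3, 38.3 and 31.8 CPM in GST lines 2, 8 and 9, and 42.0, 33.1 and 36.2 in NOCT lines 4, 11 and 12. The groups overlapped, and the highest value was in NOCT line 4, the line in which 8 of the other mRNAs were lowest. The log2 fold change was 0.11 ± 0.13 (SE; 95% interval -0.19 to 0.40, edgeR adjusted p 0.751), and without NOCT line 4 it was 0.0016. Per 1000 heavy-strand mRNA counts there were 1.57, 2.06 and 1.61 MT-ND6 counts in the GST lines and 2.77, 1.86 and 1.86 in the NOCT lines. Except for NOCT line 4, the NOCT values lay within the GST range.

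The strand of MT-ND6 can be read from its sequence, shown here by its first 60 bases beside those of MT-CO3, with every G in capitals.
MT-ND6 (chrM:14614-14673, minus strand): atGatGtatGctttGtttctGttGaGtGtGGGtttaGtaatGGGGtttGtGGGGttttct
MT-CO3 (chrM:9207-9266, plus strand): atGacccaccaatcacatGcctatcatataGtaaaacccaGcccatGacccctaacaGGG
Over its whole length MT-ND6 was 35.6% G and 7.05% C. The 12 heavy-strand mRNAs were 6.28% to 16.2% G and 29.5% to 36.0% C, with no overlap in either base. In total G + C, MT-ND6 (42.7%) lay within the range of the others (39.6% to 47.7%).

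**Figure D3:**
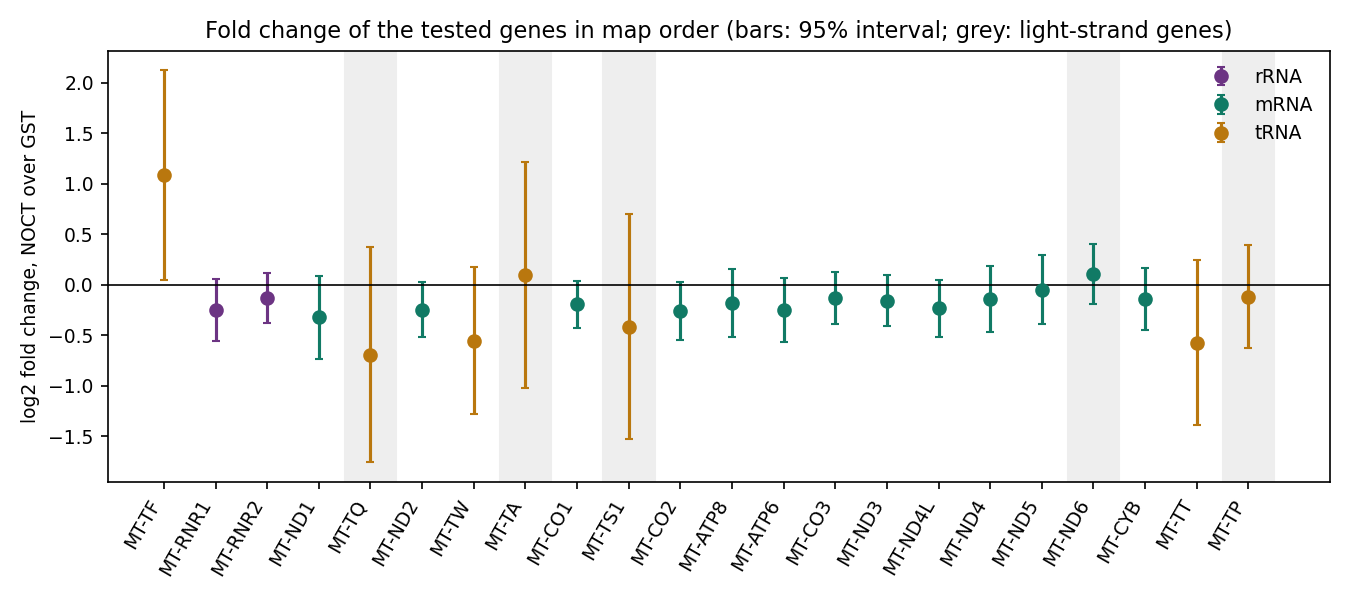
Log2 fold change of NOCT over GST lines for the 22 tested genes in the order of the genome map, with 95% intervals derived from the edgeR test. Colours give the RNA class and grey bands the light-strand genes. The intervals of all rRNAs and mRNAs include 0, 12 of 13 mRNAs lie below 0 (8 of 13 when scaled by spike-in totals), and MT-TF is the only gene whose interval, 0.05 to 2.12, leaves 0 out.

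The mRNAs had similar fold changes. The median log2 fold change of the 13 was -0.18, against 0.00 over all genes tested, and 12 of the 13 were below 0, against 49.3% of all genes. The 12 heavy-strand mRNAs ranged from -0.32 (MT-ND1) to -0.05 (MT-ND5). Scaled by spike-in totals the median was -0.04 and 8 of 13 were below 0, while relative to all genes it was -0.19 on either scale. Genes of 1 precursor are not independent. The median deviations of single lines from the mean of the 6 lines, given below, ran from -0.24 to 0.24, and those of the groups overlapped. Without NOCT line 12 the median was -0.25, and without NOCT line 4 or GST line 2 it was -0.13. By annotation, the 6 mRNAs with an incomplete last codon had a median of -0.15 (-0.32 to -0.13). The 7 with a complete one, counting MT-ATP6 with its shared last base, had a median of -0.19 (-0.26 to 0.11), and the ranges overlapped.

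Differences between clones of 1 group were as large as those between the groups. GST line 2 had the highest level of 9 of the 13 mRNAs, and NOCT line 4 the lowest of 8. Relative to the mean of the 6 lines, the median deviation of the mRNAs (log2) was 0.24, -0.02 and 0.09 in GST lines 2, 8 and 9, and -0.24, -0.13 and 0.10 in NOCT lines 4, 11 and 12. All 13 mRNAs were below the mean in NOCT line 11 and all 13 above it in NOCT line 12, so these 2 clones of the same group went in opposite directions. The lowest single value was MT-ND1 in NOCT line 4, at -0.59. Across the lines the highest CPM of an mRNA was 1.28 to 1.805 times the lowest, with a median of 1.39, against a median of 1.52 for the 14906 genes that averaged 1 CPM or more and had a count in every line.

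**Figure D4:**
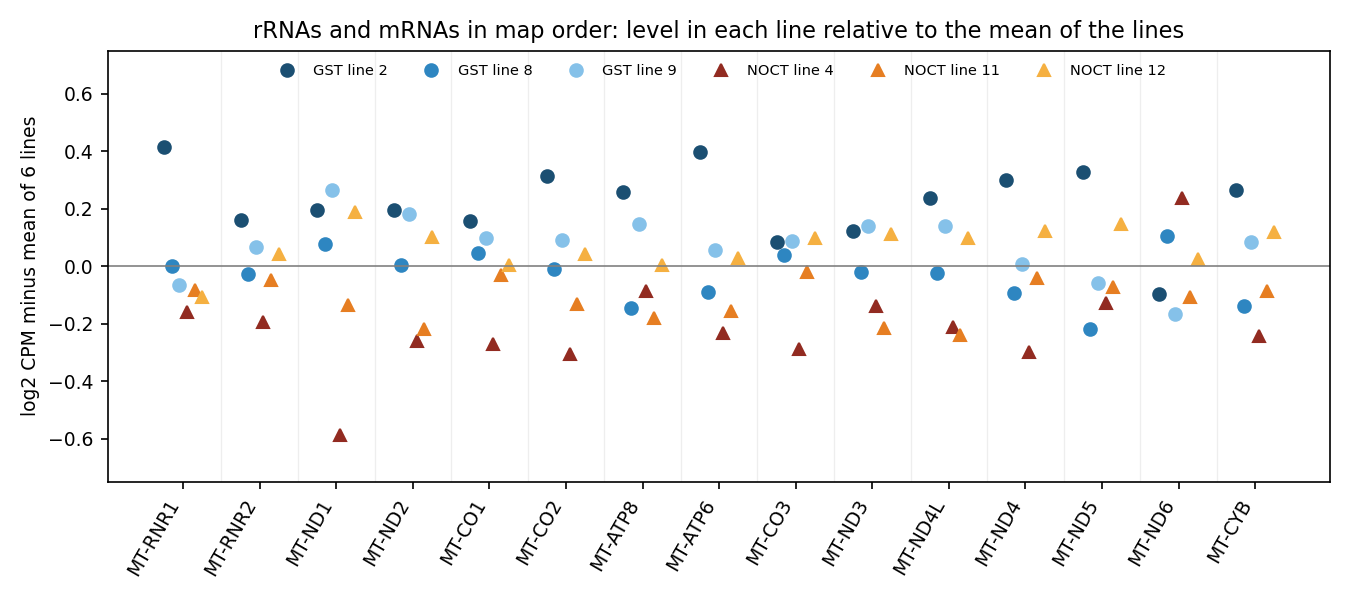
Level of each rRNA and mRNA in each line (log2 CPM minus the mean of the 6 lines), in the order of the genome map; circles are GST lines and triangles NOCT lines. GST line 2 lies on top for most genes and NOCT line 4 at the bottom, with MT-ND1 at -0.59, while the order of the 2 lines turns round at MT-ND6.

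The make-up of the mRNA pool was similar in all lines. MT-CO1 took 30.4% to 32.8% of the mitochondrial mRNA counts, MT-CO3 23.9% to 26.6%, and MT-ND6 0.157% to 0.276%. Of the 13 shares, which add up to the whole pool and so are not independent, only that of MT-CO2 did not overlap between the groups. It was 13.3%, 12.2% and 12.3% in GST lines 2, 8 and 9, and 12.1%, 11.7% and 12.0% in NOCT lines 4, 11 and 12. The nearest lines, GST line 8 and NOCT line 4, were separated by less than 0.1 percentage points. By CPM, the groups did not overlap for 9.54% of all genes tested that were lower in the NOCT lines and 10.5% that were higher. A single share of 13 is therefore not read as a result about MT-CO2. MT-ND1 took 6.27% to 7.06% in the GST lines and 5.09% to 6.81% in the NOCT lines.

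The tRNAs are adapters that also mark where the precursors are cut. The 7 that passed the filter are printed from GENCODE release 29 (GRCh38, 5′ to 3′) with the anticodon in capitals, since they are the tRNAs tested. Their highest CPM was 1.44 (MT-TP) to 4.34 (MT-TF) times their lowest. They are the tRNAs for phenylalanine (MT-TF), glutamine (MT-TQ), tryptophan (MT-TW), alanine (MT-TA), serine (MT-TS1), threonine (MT-TT) and proline (MT-TP).
MT-TF (chrM:577-647, plus strand): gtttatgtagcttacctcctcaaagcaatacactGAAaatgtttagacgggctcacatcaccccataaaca
MT-TQ (chrM:4329-4400, minus strand): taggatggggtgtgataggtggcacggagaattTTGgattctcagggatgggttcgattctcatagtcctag
MT-TW (chrM:5512-5579, plus strand): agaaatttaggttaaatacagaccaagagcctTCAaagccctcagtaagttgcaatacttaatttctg
MT-TA (chrM:5587-5655, minus strand): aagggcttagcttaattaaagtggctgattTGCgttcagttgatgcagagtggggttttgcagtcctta
MT-TS1 (chrM:7446-7514, minus strand): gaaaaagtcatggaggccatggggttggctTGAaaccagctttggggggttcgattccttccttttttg
MT-TT (chrM:15888-15953, plus strand): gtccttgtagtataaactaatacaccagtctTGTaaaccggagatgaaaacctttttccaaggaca
MT-TP (chrM:15956-16023, minus strand): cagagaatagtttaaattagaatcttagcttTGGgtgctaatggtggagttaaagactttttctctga

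MT-TF lies just upstream of MT-RNR1, at the start of the heavy-strand transcript. GST lines 2, 8 and 9 had 11, 6 and 4 counts of it, and 16, 17 and 17 were found in NOCT lines 4, 11 and 12. All NOCT lines were above all GST lines, though on a total of 71 counts. The log2 fold change was 1.08 ± 0.45 (SE; 95% interval 0.05 to 2.12, edgeR unadjusted p 0.0424, adjusted p 0.338), and over the alternatives the adjusted p was 0.196 to 0.695.

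MT-TT follows MT-CYB at the end of the heavy-strand genes and was the most counted tRNA, with 814 counts in all. It had 176, 144 and 152 counts in the GST lines and 83, 90 and 169 in the NOCT lines. NOCT lines 4 and 11 were well below the GST lines, and NOCT line 12 was among them. The log2 fold change was -0.58 ± 0.36 (SE; 95% interval -1.39 to 0.24, edgeR adjusted p 0.508). Without NOCT line 12 it was -1.10 with an edgeR adjusted p of 0.0347, in a fit that called 5.42% of all genes. As a share of MT-CYB counts, MT-TT was 0.648%, 0.617% and 0.591% in the GST lines and 0.323%, 0.359% and 0.654% in the NOCT lines. Its neighbour on the other strand, MT-TP, had 71 to 78 counts in the GST lines and 72 to 81 in the NOCT lines.

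The other tested tRNAs had few counts and wide intervals. MT-TQ had 11, 36 and 16 counts in the GST lines and 12, 14 and 16 in the NOCT lines. MT-TW had 25, 44 and 39 in the GST lines and 26, 35 and 20 in the NOCT lines. MT-TA had 8, 25 and 7 against 18, 16 and 13, and MT-TS1 had 5, 11 and 11 against 7, 5 and 10. GST line 8 held the most MT-TQ, MT-TW and MT-TA. The log2 fold changes of these 4 ran from -0.69 ± 0.46 (MT-TQ) to 0.10 ± 0.49 (MT-TA, SE), with edgeR adjusted p of 0.475 to 0.948, and MT-TA fell on either side of 0 when single GST lines were left out (-0.20 to 0.84). MT-TQ rested on GST line 8, without which its log2 fold change was -0.13.

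The tRNA counts divided by where the genes lie, a split made after the counts were seen. Inside a gene as short as MT-TF only 22 start positions keep a whole read within its 71 bases. A tRNA gene has a free side when at least 50 bases next to it hold no gene of the same strand, so that a read reaching out of the gene still touches no other. The 12 genes with a free side held 1842 of the 1855 tRNA counts, and all 7 that passed the filter were among them. The 10 without a free side held 13 counts, and 7 of these (MT-TV, MT-TN, MT-TK, MT-TG, MT-TH, MT-TS2 and MT-TL2) had 0 in every line. With a free side, MT-TD had 0 counts, MT-TE 9, MT-TI 10 and MT-TM 11 in all lines together, and without one MT-TL1 had 10, so low counts occurred on both sides of the split. The remaining tRNAs had at most 15 counts in a line (MT-TY in NOCT line 4). A count of 0 allows up to 3 counts per line by counting error alone. Libraries of this kind are not made for RNAs as short as mature tRNAs, and these counts are not read as tRNA levels.

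**Figure D5:**
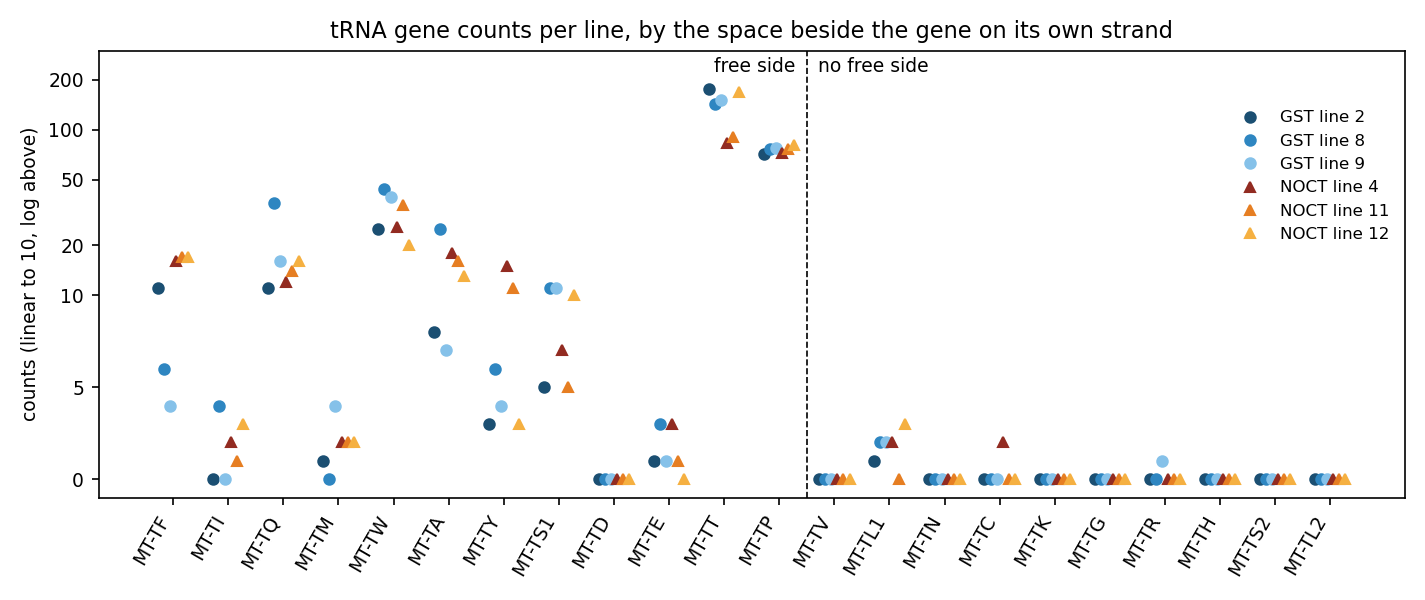
Counts of the 22 tRNA genes in each line (axis linear to 10 and logarithmic above), with the 12 genes that have a free side of at least 50 bases on the left and the 10 without on the right; circles are GST lines and triangles NOCT lines. The right-hand genes hold 13 of 1855 counts, MT-TT reaches 176 in GST line 2, and for MT-TF the 3 NOCT lines (16 or 17 counts) lie above the 3 GST lines (4 to 11).

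The nuclear genome carries copies of mitochondrial genes whose reads can be shared with the originals. There were 405 such genes in the tables, and 112 had a count. Together they had 2359 to 2831 counts in a line, or 0.395 to 0.478 per 1000 counts of the mitochondrial genes. The copy with the most counts was MTATP6P1, 7032 in all, which had 1321, 1106 and 1188 counts in GST lines 2, 8 and 9, and 1206, 1074 and 1137 in NOCT lines 4, 11 and 12 (edgeR adjusted p 0.486). Reads that fitted more than 1 place, 13.3% to 14.6% of each library's reads, were not assigned. The counts of the mitochondrial genes are those of uniquely placed reads, and how many of their reads were lost to copies was not tested.

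The proteins that make, cut, stabilise and modify mitochondrial RNA are encoded in the nucleus. A list of 57 such genes was all tested, and 0 were called by edgeR, against 0.0579% of all genes, with 24 above and 33 below 0 and a median log2 fold change of -0.04. At an unadjusted p under 0.05, 3 were higher (7.38% of all genes) and 1 was lower (6.52% of all genes). DESeq2 called 2 of the 57, in a fit that called 2.94% of all genes. By role, the unadjusted counts were 1 higher of 16 for transcription and genome maintenance, 0 of 11 for processing at tRNA ends, 1 lower of 10 for mRNA stability and decay, 0 of 8 for rRNA modification, and 2 higher of 13 for tRNA modification. TBRG4 is counted in both processing and stability.

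GRSF1, an RNA-binding protein of mitochondrial RNA granules, had the smallest p of the list. It had 114, 101 and 112 CPM in GST lines 2, 8 and 9, and 80.2, 78.8 and 81.3 in NOCT lines 4, 11 and 12. The NOCT lines lay close together and below all GST lines, and the log2 fold change was -0.44 ± 0.09 (SE, edgeR adjusted p 0.120; DESeq2 adjusted p 0.00373). ALKBH1, which modifies mitochondrial and other tRNAs, had 16.3, 13.6 and 13.5 CPM in the GST lines and 22.8, 20.4 and 21.1 in the NOCT lines. Its log2 fold change was 0.57 ± 0.13 (SE, edgeR adjusted p 0.165; DESeq2 adjusted p 0.0191). MGME1, a nuclease of mitochondrial genome maintenance, had 23.9, 27.2 and 27.0 CPM in the GST lines and 42.1, 43.2 and 30.2 in the NOCT lines (0.56 ± 0.16, SE, edgeR adjusted p 0.201). TRMU, a tRNA-thiolating enzyme, was also higher in every NOCT line (0.30 ± 0.12, SE, edgeR adjusted p 0.328). RNASEH1, which removes RNA from RNA-DNA hybrids, and QTRT1, a subunit of the queuine tRNA enzyme, had -0.37 and -0.30 (edgeR adjusted p 0.376 and 0.427).

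LRPPRC, SLIRP, POLRMT and TFAM were named outside the rule, after their values were seen. LRPPRC, the partner of SLIRP in keeping mitochondrial mRNAs stable, had 225, 245 and 235 CPM in GST lines 2, 8 and 9, and 149, 191 and 234 in NOCT lines 4, 11 and 12 (log2 fold change -0.29 ± 0.15, SE, edgeR adjusted p 0.434). NOCT line 4 was lowest and NOCT line 12 was within the GST range. With 3 clones in a group this order is a description only. SLIRP itself had 71.0, 48.3 and 61.3 CPM in the GST lines and 75.1, 72.9 and 69.9 in the NOCT lines. Within the NOCT group its order was the reverse of that of LRPPRC. The log2 fold change of SLIRP was 0.27 ± 0.14 (SE, edgeR adjusted p 0.430). The polymerase POLRMT and the packaging factor TFAM had -0.12 ± 0.09 and 0.02 ± 0.09 (SE; edgeR adjusted p 0.597 and 0.936), with groups that overlapped.

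The authors' deposited table of fold changes from DESeq2 lists 24 of the 37 mitochondrial genes. Of these 24 genes in the authors' deposited table, 0 have an adjusted p under 0.05 and 3 have none, and the lowest is 0.425 for MT-CO2. The share of all genes that pass in the authors' deposited table is not given here, so this count has no background. The shrunken log2 fold changes in the authors' deposited table are below 0 for 12 of the 13 mRNAs, with a median of -0.16 and a range of -0.28 (MT-ND1) to 0.09 (MT-ND6).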

How the data were processed

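Per the labels, total RNA with ERCC spike-ins was depleted of rRNA and sequenced by strand as 50 bp reads. The deposited counts give whole reads for each gene in 1 table per line; the submitters' processing notes name STAR 2.5.2b, HTSeq 0.6.1p1, cutadapt 1.8.1, Trimmomatic 0.33, FastQC 0.10.1, MultiQC 1.0, DESeq2 1.16.1 and GRCh38, with no role. The annotation release and the HTSeq mode are not given in the sources used here. The counts use strand: of 661 genes wholly inside an exon of the opposite strand, 128 had at least 10 counts in all, against 3 of 735 inside an exon of the same strand. The deposited TPM values were made by the authors with 1 length per gene; for all 29 mitochondrial genes with counts that length equals the annotated one within 0.001%. The authors' deposited comparison holds log2 fold changes, p-values, a Wald score and a mean normalised signal per gene; its direction, not stated in the header, was taken from the 2 construct rows. The mean signal and the score were not used for a result.

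Genes were tested with edgeR 4.0.16 in R 4.3.3 (filterByExpr, TMM over genes, quasi-likelihood test, Benjamini-Hochberg over 17261 genes, threshold 0.05). Rows that name no gene (no feature 26.5% to 30.6%, ambiguous 2.02% to 2.41%, not unique 13.3% to 14.6% of reads) and spike-ins stayed out of library sizes. Alternatives were DESeq2 1.42.0, other scalings (RLE, spike-in totals, without MT- genes), no filter, and leaving out each line. The fit was checked on simulated counts, where it recovered 66% of 2-fold and 99% of 4-fold changes, with 13 false calls. The changes were put only into genes above a floor on expected counts. These rates therefore do not cover tRNAs with few counts, such as MT-TF. Smaller changes were not simulated. All 37 genes matched GENCODE release 29 by identifier. All rRNA and mRNA genes and tested tRNAs were named, and of the nuclear list at most 3 genes per direction with the smallest p. The members, lists and rules were chosen with earlier results of these data known.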

Additional observations from a re-analysis of the deposited data

How the results depend on the processing

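No mitochondrial gene was called under DESeq2, RLE scaling, spike-in scaling, scaling without MT- genes, no filter on low counts or leaving out any line but 1: without NOCT line 12, 1 was called, the tRNA gene MT-TT (range 0 to 1 for all members and for the tRNAs; 5.42% of all genes were called in that fit). Leaving out single lines gave 0 to 3 calls in the nuclear list. Without NOCT line 12 these were GRSF1, MGME1 and CDK5RAP1 (edgeR adjusted p 0.0385, 0.0142 and 0.0272). DESeq2 called 2 (GRSF1 and ALKBH1), and the fit with no filter 2 (GRSF1 and MGME1, edgeR adjusted p 0.0270 and 0.0350), in fits that called 2.94% and 2.57% of all genes. Spike-in scaling turned the log2 fold change of MT-RNR2 to 0.014, MT-CO3 to 0.016, MT-ND4 to 0.00052, MT-ND5 to 0.10, MT-CYB to 0.0042 and MT-TP to 0.030, as the median of all genes moved to 0.15, and the rRNA log2 ratio per spike-in count was 0.0091. Leaving out single lines gave -0.20 to 0.84 for MT-TA, -0.17 to 0.12 for MT-ND5 and -0.26 to 0.00083 for MT-TP. The mRNA shares without overlap numbered 1 to 3. Why these values moved was not tested beyond the scaling. No paired analysis was possible because the line numbers in the labels are not shared between the groups. Low counts limit the tested tRNAs: MT-TF had 4 to 17 per line, MT-TS1 5 to 11, MT-TA 7 to 25 and MT-TQ 11 to 36.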
